A study of Schizosaccharomyces pombe with 40 samples.

Results

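The comparison set 120 min against 30 min in hydroxyurea in 3 strains of fission yeast (Schizosaccharomyces pombe) with altered rep2. It used 12 of the 40 arrays of the series, 6 at each time. Per the labels, the strains Cdelta21 and Cdelta53 have a truncated rep2 gene and the strain 2C/S-H/Y has a site mutation in it. All were grown in YES medium at 30 degrees to mid log phase and treated with 8 mM hydroxyurea (HU), with 2 arrays for each strain and time. Each array compared RNA of the strain, labelled with Cy5, with a pooled wild-type reference labelled with Cy3. The rule chose arrays by strain and time: 30 min and 120 min arrays of these 3 strains entered, and the 0 min arrays did not. The strain Cdelta94 was left out because its 30 and 120 min labels are in doubt. By those labels its values went the opposite way on some of the lists that moved most, as given at the end. Likeness among the 3 strains kept is thus in part a matter of which strains were kept. No wild-type culture was followed in HU here, so a change between the 2 times cannot be assigned to the rep2 alterations. The sources used here do not say whether a strain is 1 isolate, or whether paired arrays stem from different cultures. The p-values thus reflect variation among arrays, some or all of which may be technical.

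HU inhibits ribonucleotide reductase, the enzyme that makes deoxyribonucleotides, so forks slow or stall and the DNA replication checkpoint holds cells out of mitosis. Rep2 is an activator of MBF, the transcription complex that drives G1/S genes such as those for origin licensing and deoxyribonucleotide synthesis, and in fission yeast MBF stays active while replication is blocked. Later in the normal cycle a forkhead and MADS-box complex (PBF) drives mitotic and cytokinesis genes, and glucanases made after mitosis then part the daughter cells. Fission yeast also has a core environmental stress response, run largely by the MAP kinase Sty1 and the factor Atf1, in which stress genes rise and growth genes fall.

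Some arrays stood apart before any comparison was made. The 2 arrays of every Cdelta53 group nearly repeated each other: their correlation across features was 0.980 to 0.993, and the SD of their difference was 0.058 to 0.083 on the log2 scale. In all other groups that SD was 0.143 or more. In addition, the 2C/S-H/Y 30 min replicate 1 array nearly repeated the 60 min replicate 1 array of that strain, with a correlation of 0.992 and an SD of the difference of 0.065, so the time that array represents is in doubt. Counts are therefore also given with near-repeats counted once, where each Cdelta53 pair was averaged to 1 array and that 60 min array was dropped. The spread of log2 ratios across features was larger late than early: its SD was 0.366 to 0.521 on the 30 min arrays and 0.485 to 0.672 on the 120 min arrays.

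The signal of the altered gene itself separated the strains more than the times. The log2 ratio at the rep2 probes was −0.81 and −0.96 early and −0.57 and −0.59 late in Cdelta21. It was −3.09 and −3.20 early and −2.67 and −2.71 late in Cdelta53. In 2C/S-H/Y it was 0.35 and 0.20 early and 0.46 and 0.36 late. Both late arrays lay above both early arrays in each strain, and the mean difference was 0.30 ± 0.08 (SE; limma, adjusted p = 0.00554). With near-repeats counted once the adjusted p was 0.0497. Which part of the truncated gene the probes read is not given in the sources used here.

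Of 5004 features tested, 945 rose and 982 fell between 30 and 120 min, which is 18.9% and 19.6% (limma on the mean of the 3 within-strain differences, Benjamini-Hochberg adjusted p under 0.05). In total 38.5% were called. "Rose" and "fell" below refer to this test. Only 58 features (1.16%) changed by at least 2-fold, 39 of them upward. With near-repeats counted once, 573 rose (11.5%) and 559 fell (11.2%), and all 1132 were among those called before. When the 3 strains were taken as the unit of replication, so that each gene had 3 values, 264 rose (5.28%) and 138 fell (2.76%), again all among the calls of the full fit. Of the features called, 85.1% had the same sign in the 3 strains, against 48.7% of all features. Calls rest on the mean of the same 3 differences, which favours a shared sign by construction, so these shares do not measure agreement between strains. Both late arrays lay above both early arrays in every strain for 543 features (10.9%), and below them for 453 (9.05%).

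The late culture had higher stress, G1/S and histone transcripts, and lower transcripts of mitosis, cell separation and ribosome production. These groups come from 33 gene lists drawn from textbook knowledge. Some lists share genes, so their counts are not independent. For example, cdc22 and cdt2 are on both the MBF target and the deoxyribonucleotide supply lists. The lists held 892 different genes tested, of which 181 rose and 212 fell, or 44.1% called in either direction, against 38.5% of all features. The median difference over all features was −0.01.

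**Figure D1:**
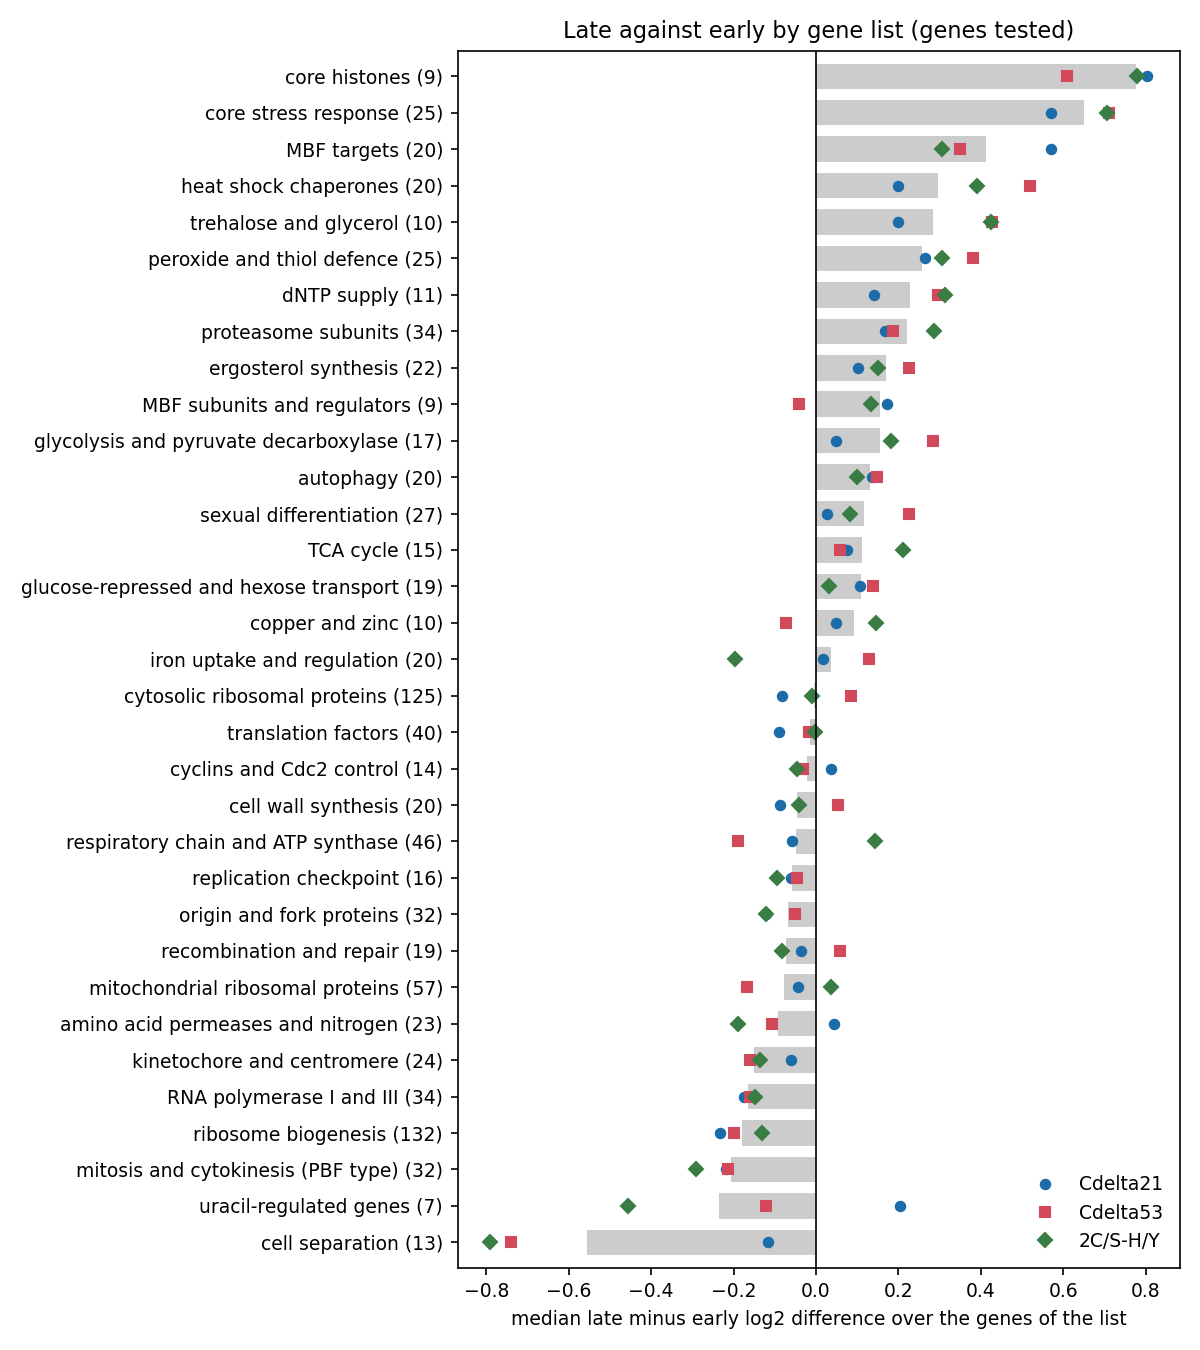
Median log2 difference between 120 and 30 min in HU for 33 gene lists, with the number of genes tested in parentheses; grey bars are the mean of 3 strains and symbols the single strains. Core histones (0.78), core stress genes (0.65) and MBF targets (0.41) lie highest, cell separation genes (−0.56) lowest, and in 22 lists the medians of the 3 strains share their sign.

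For each list described below the count with near-repeats counted once is also given, to be read against the 11.5% and 11.2% of all features that then rose and fell. Leaving out the 2C/S-H/Y 30 min replicate 1 array as well, 16 core stress, 12 MBF target and 8 histone genes rose, and 7 cell separation, 14 mitosis and 37 ribosome biogenesis genes fell.

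The core stress response was raised further at 120 min. Of its 25 genes tested, 19 rose, atf1 and uge1 fell, and the median difference was 0.65. It was 0.57 in Cdelta21 and 0.71 in both Cdelta53 and 2C/S-H/Y. With near-repeats counted once, 16 rose and 0 fell. On the list means of single arrays, Cdelta21 stood at 0.26 and 0.23 early and at 0.75 and 0.77 late, while Cdelta53 stood at 0.79 and 0.78 early and at 1.57 and 1.58 late. In 2C/S-H/Y the means were 0.97 and 0.79 early and 1.52 and 1.60 late. Early and late arrays did not overlap within any strain, but the late Cdelta21 arrays were no higher than the early arrays of the other strains.

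hsp16, which encodes a small heat shock protein, was at 0.85 and 0.58 early and 2.80 and 2.77 late in Cdelta21. It went from 2.54 on both early arrays to 4.87 and 4.86 in Cdelta53, and from 3.31 and 3.17 to 5.16 and 5.02 in 2C/S-H/Y. The groups did not overlap in any strain. The mean rise was 2.08 ± 0.10 (SE, 4.24-fold; limma, adjusted p = 1.58e-15). The starting levels of hsp16 differed widely, but its rise did not pass the test for a strain difference (limma F test, adjusted p = 0.40).

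lsd90, another gene of the core stress list, rose by 1.91 ± 0.11 and did differ between strains (limma F test, adjusted p = 2.2e-06). It went from 0.69 and 0.61 to 1.36 and 1.32 in Cdelta21. In Cdelta53 it went from 0.94 and 1.00 to 3.92 and 3.90, and in 2C/S-H/Y from 1.39 and 0.81 to 3.04 and 3.35. All late arrays were above the early arrays of their strain, and Cdelta21 had the smallest step. tms1 rose by 1.30 ± 0.12, zym1, for a metallothionein, by 1.09 ± 0.13, and hsp104, for a disaggregase, by 1.11 ± 0.09.

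Protein folding, redox and trehalose genes went the same way, although the chaperone list shares hsp16 and hsp104 with the core stress list. Of 20 heat shock chaperone genes, 14 rose and 0 fell (median 0.30), and 10 rose with near-repeats counted once. Besides hsp16 and hsp104, psi1, for a DnaJ co-chaperone, rose by 0.87 ± 0.08 and hsp78, for the mitochondrial disaggregase, by 0.74 ± 0.08. For psi1 and for hsp78 4 of the 24 probe values were missing, so their averages depend in part on which probe was present. After quantile normalization between arrays hsp104, psi1 and hsp78 did not pass (limma, adjusted p = 0.17, 0.26 and 0.64). Of 25 peroxide and thiol defence genes, 17 rose and only sod1, for copper-zinc superoxide dismutase, fell, by 0.50 (median of the list 0.26); with near-repeats counted once 14 rose and 1 fell. gst2, for a glutathione S-transferase, was at 1.43 and 1.65 early and 3.13 and 3.06 late in Cdelta21, at 1.92 and 1.90 and then 3.10 and 3.08 in Cdelta53, and at 2.33 and 2.47 and then 3.70 and 3.90 in 2C/S-H/Y. The late arrays of Cdelta21 and Cdelta53 lay close together and those of 2C/S-H/Y above them, and the mean rise of gst2 was 1.38 ± 0.07. The glutaredoxin gene grx1 rose by 0.98 ± 0.09 and the glutathione peroxidase gene gpx1 by 0.85 ± 0.09. Catalase (ctt1) rose by 0.65 ± 0.07, although its 2 probes gave 0.25 and 1.05. Of 10 trehalose and glycerol genes 8 rose and 0 fell, 6 with near-repeats counted once, led by the trehalose synthase gene tps1 (0.91 ± 0.06) and the neutral trehalase gene ntp1 (0.82 ± 0.08). Of 34 proteasome subunit genes 18 rose and 0 fell (median 0.22), 11 with near-repeats counted once, and the regulatory particle genes rpt2 and rpn3 rose by 0.51 ± 0.08 and 0.47 ± 0.07.

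**Figure D2:**
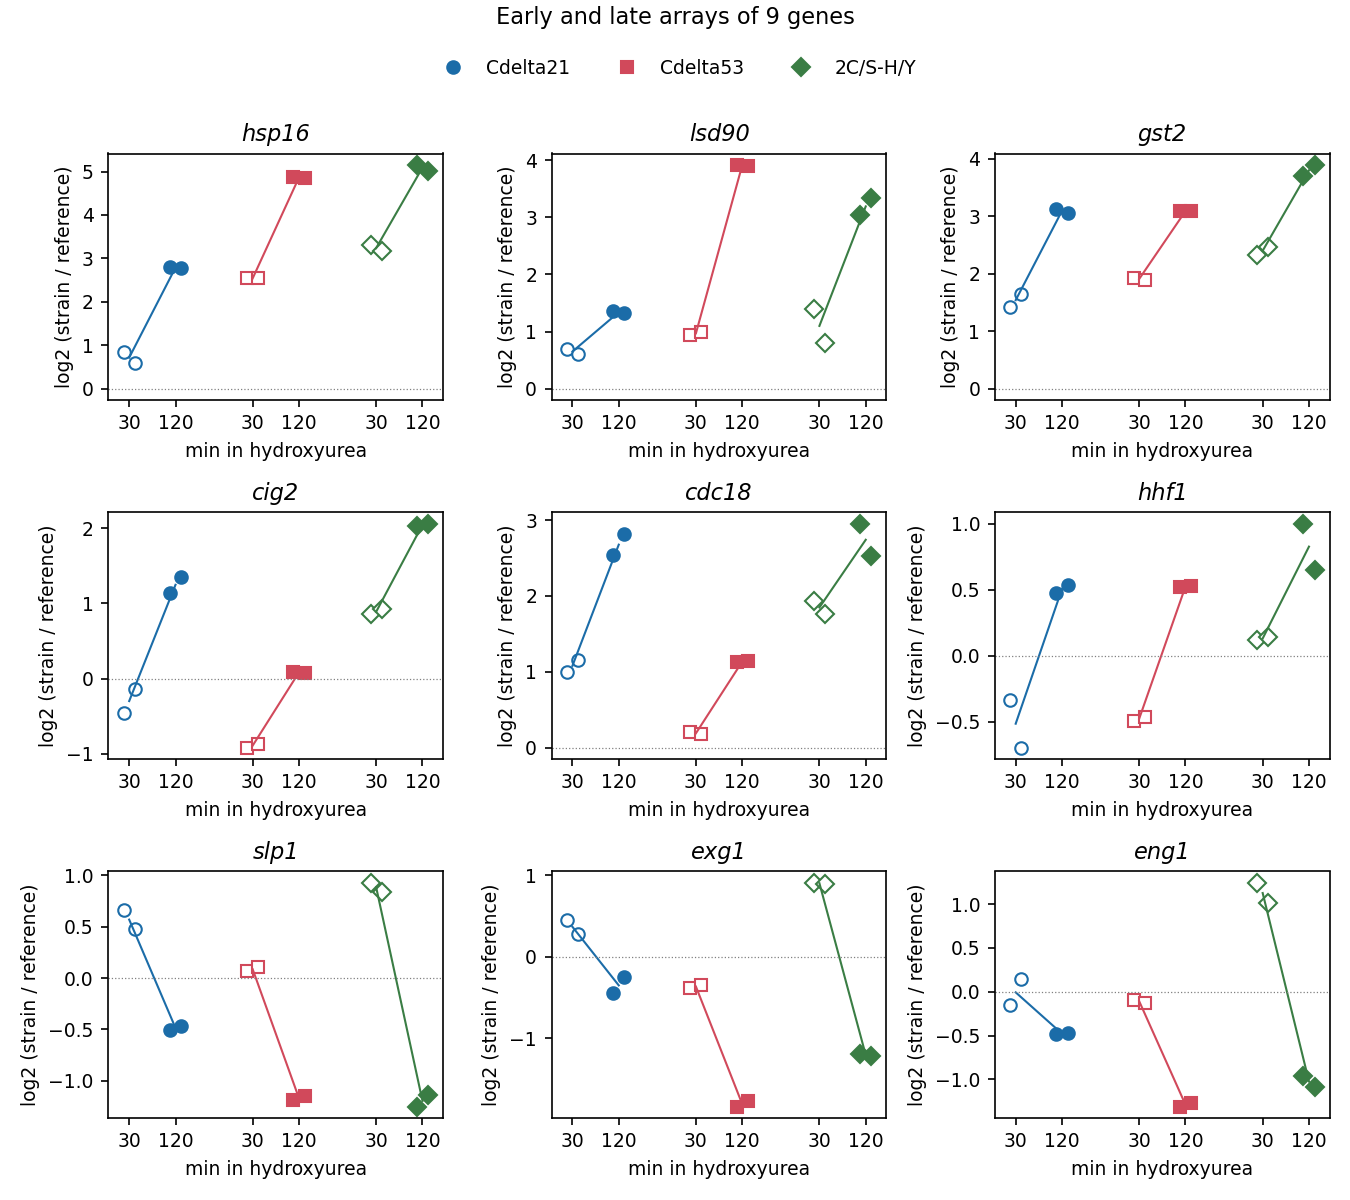
Log2 ratio of strain to wild-type reference for 9 genes on each of the 12 arrays, by strain and time; open symbols are 30 min, filled symbols 120 min, and lines join the means of 2 arrays. Late arrays lie above early arrays for hsp16, lsd90, gst2, cig2, cdc18 and hhf1 and below them for slp1, exg1 and eng1 in every strain, while the starting levels differ between strains.

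G1/S transcripts driven by MBF were higher late. Of 20 MBF target genes tested, 17 rose and only cdm1, for a subunit of DNA polymerase delta, fell; pol1 and mcl1 did not pass. The median difference was 0.41, with 0.57 for Cdelta21, 0.35 for Cdelta53 and 0.31 for 2C/S-H/Y. With near-repeats counted once 12 rose and 1 fell. The strains kept different levels: the list mean on single arrays was 0.03 and 0.05 early and 0.34 and 0.37 late in Cdelta53. In Cdelta21 it was 0.35 and 0.44 early, which overlaps the late Cdelta53 arrays, and 1.06 and 1.12 late. In 2C/S-H/Y it was 0.71 and 0.69 early and 0.99 and 1.07 late.

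cig2, which encodes the cyclin of the G1/S transition, gave the largest rise on the MBF list. It was at −0.46 and −0.14 early and 1.15 and 1.35 late in Cdelta21, at −0.92 and −0.86 and then 0.09 and 0.07 in Cdelta53, and at 0.86 and 0.92 and then 2.03 and 2.06 in 2C/S-H/Y. The mean rise was 1.23 ± 0.08 (2.34-fold; limma, adjusted p = 2.60e-12). Late Cdelta53 arrays lay below early 2C/S-H/Y arrays, so the order of the strains was kept while all 3 moved. cdc18, the origin licensing factor, rose by 1.14 ± 0.12: from 1.00 and 1.16 to 2.54 and 2.81 in Cdelta21, from 0.20 and 0.17 to 1.13 and 1.14 in Cdelta53, and from 1.94 and 1.76 to 2.95 and 2.53 in 2C/S-H/Y. Neither gene passed the test for a strain difference (adjusted p = 0.13 and 0.15).

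Of 11 genes of deoxyribonucleotide supply 7 rose and 2 fell, and 6 rose and 2 fell with near-repeats counted once. cdc22, for the large subunit of ribonucleotide reductase, rose by 0.96 ± 0.09. suc22, for the small subunit, whose radical HU quenches, rose by 0.41 ± 0.07 and is mentioned here because of that role. cdt2 rose by 0.87 ± 0.07. Cdt2 directs the ubiquitin ligase that removes Spd1, the inhibitor of ribonucleotide reductase. The transcript of that inhibitor, spd1, fell by 0.67 (SE 0.08), and cul4, for the scaffold of the same ligase, also fell. The dUTPase gene dut1 rose by 0.55 ± 0.08.

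Among the 9 subunits and regulators of MBF 4 rose and 1 fell, and 3 rose and 1 fell with near-repeats counted once. cdc10, the core subunit, rose by 0.35 ± 0.07 and pas1, for a cyclin that acts on MBF, by 0.30 ± 0.08, and nrm1, for a repressor of MBF that is itself a target, by 0.16 ± 0.06. With near-repeats counted once nrm1 did not pass (limma, adjusted p = 0.17). rum1, for the CDK inhibitor of G1, fell by 0.34 (SE 0.06). The differences of res1 (0.20 ± 0.08), res2 (−0.12 ± 0.07), rep1 (−0.02 ± 0.10) and whi5 (0.04 ± 0.13) did not pass. For cdc10 the 2 probes disagreed, at −0.05 and 0.75.

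The core histone transcripts turned from below to above the wild-type reference in Cdelta21 and Cdelta53. Of 9 histone genes tested 8 rose, also with near-repeats counted once, and hht2 did not pass at 0.16 ± 0.10. The median difference was 0.78, with 0.80 for Cdelta21, 0.61 for Cdelta53 and 0.78 for 2C/S-H/Y. The list mean was −0.33 and −0.52 early and 0.32 and 0.33 late in Cdelta21, and −0.39 on both early arrays and 0.20 on both late arrays in Cdelta53. In 2C/S-H/Y it was 0.24 and −0.00 early and 1.02 and 0.66 late.

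hhf1, for histone H4, went from −0.33 and −0.70 to 0.47 and 0.54 in Cdelta21, from −0.49 and −0.46 to 0.52 and 0.53 in Cdelta53, and from 0.12 and 0.14 to 1.00 and 0.65 in 2C/S-H/Y. Its mean rise was 0.91 ± 0.06 (limma, adjusted p = 4.36e-12), and hhf3 rose by 0.91 ± 0.08. The H2A genes hta1 and hta2 rose by 0.80 ± 0.11 and 0.84 ± 0.08. Histone copies are nearly identical in sequence, so their probes may read more than 1 copy. ams2, for a GATA factor that activates histone genes and is itself an MBF target, rose by 0.66 ± 0.07, but unevenly: its within-strain differences were 1.20, 0.10 and 0.67 in Cdelta21, Cdelta53 and 2C/S-H/Y (limma F test for a strain difference, adjusted p = 0.00020).

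Of 16 checkpoint genes mrc1 and mik1 rose (12.5%), by 0.25 ± 0.07 and 0.45 ± 0.09, and rad3, chk1 and wee1 fell (18.8%), shares below the 18.9% and 19.6% of all features. These counts were 2 and 2 with near-repeats counted once. chk1, the kinase of the DNA damage checkpoint, fell by 0.70 (SE 0.12) and was lower late in every strain. It went from 0.37 and 0.59 to −0.24 and −0.03 in Cdelta21, from −0.23 and −0.25 to −1.08 and −0.89 in Cdelta53, and from 0.68 and 0.73 to 0.07 and −0.17 in 2C/S-H/Y. Of 32 origin and fork genes only psf3 rose (3.13%) and 8 fell (25%), but with near-repeats counted once 0 rose and 2 fell. The falls were shallow: dfp1, the partner of the Hsk1 kinase, fell by 0.33 and mcm4, of the replicative helicase, by 0.25, though mcm4 did not pass with near-repeats counted once (limma, adjusted p = 0.062). Of 19 recombination and repair genes 3 rose and 3 fell (15.8% each), and 3 rose and 2 fell with near-repeats counted once. ctp1, which starts resection of DNA breaks, rose by 0.68 ± 0.07 and rad54 by 0.50 ± 0.10 (adjusted p = 0.62 after quantile normalization), and exo1 fell by 0.39 (SE 0.06).

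Mitotic and cytokinesis genes were lower late. Of 32 such genes 16 fell, 13 with near-repeats counted once, and sep1, klp9 and imp2 rose (median −0.21). slp1, for the Cdc20-type activator of the anaphase-promoting complex, stood above the reference early and below it late in all strains. It went from 0.66 and 0.48 to −0.51 and −0.46 in Cdelta21, from 0.07 and 0.10 to −1.19 and −1.15 in Cdelta53, and from 0.93 and 0.84 to −1.25 and −1.14 in 2C/S-H/Y. The mean fall of slp1 was −1.46 ± 0.06, or 2.76-fold (limma, adjusted p = 9.43e-18), and the strains differed (limma F test, adjusted p = 1.3e-05), with −2.08 in 2C/S-H/Y and −1.05 in Cdelta21. spo12, a factor of mitotic exit, fell by 1.13 (SE 0.07), etd1, needed for septation, by 0.77 (SE 0.06), and cut1, for separase, by 0.71 (SE 0.08). Of 24 kinetochore and centromere genes 7 fell (29.2%, against 19.6% of all features), and ams2 and fta4 rose. The count was 2 fallen and 2 risen with near-repeats counted once.

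The genes that part daughter cells had the lowest median of the 33 lists, −0.56. Of 13 tested 10 fell, 7 with near-repeats counted once, and only exg3 rose (0.42 ± 0.07). The medians were −0.12 for Cdelta21, −0.74 for Cdelta53 and −0.79 for 2C/S-H/Y. For 8 of the 13 the strain difference passed the test, against 11.7% of all features. This count was not repeated for the list with near-repeats counted once, where 80 rather than 584 of all features passed. exg1, for a glucan glucosidase, went from 0.46 and 0.28 to −0.45 and −0.25 in Cdelta21, from −0.38 and −0.35 to −1.83 and −1.77 in Cdelta53, and from 0.91 and 0.90 to −1.19 and −1.22 in 2C/S-H/Y. eng1, for the endoglucanase that dissolves the primary septum, went from −0.16 and 0.14 to −0.48 on both arrays in Cdelta21, from −0.09 and −0.13 to −1.31 and −1.27 in Cdelta53, and from 1.25 and 1.01 to −0.96 and −1.09 in 2C/S-H/Y. Late arrays lay below early arrays in every strain for both genes, which fell by 1.42 (SE 0.06) and 1.27 (SE 0.08) on average, and the step grew from Cdelta21 over Cdelta53 to 2C/S-H/Y.

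adg1, another gene of the cell separation list, broke that order. It was at −0.23 and −0.57 early and −0.21 and −0.41 late in Cdelta21, which overlap. It went from −0.70 on both arrays to −2.84 and −2.81 in Cdelta53, and from 0.89 and 0.40 to −0.76 and −0.82 in 2C/S-H/Y. The within-strain differences of adg1 were 0.09, −2.13 and −1.43 (limma F test, adjusted p = 1.2e-08).

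**Figure D3:**
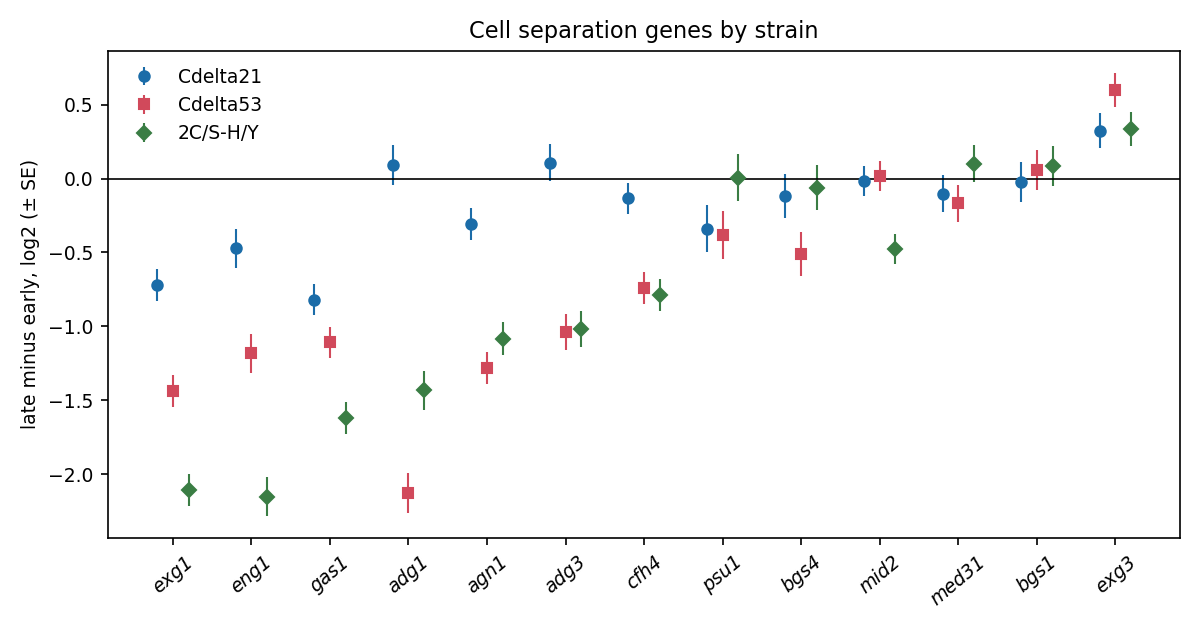
Late minus early log2 difference of the 13 cell separation genes in each strain; bars are limma's SE with 2 arrays at each time. For the 7 genes on the left Cdelta21 changes least, and exg1 and eng1 fall most in 2C/S-H/Y.

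Growth genes fell by small amounts in large numbers. Of 132 ribosome biogenesis genes 66 fell, 35 with near-repeats counted once, and drs1, noc4 and rrp43 rose (median −0.18). The medians were −0.23 for Cdelta21, −0.20 for Cdelta53 and −0.13 for 2C/S-H/Y. dbp2, for an RNA helicase, fell by 0.96 (SE 0.10) and rlp7, for a factor of the large ribosomal subunit, by 0.77 (SE 0.07). The rise of noc4 (0.65 ± 0.07) rests on 1 of its probes, which gave 1.36 against −0.05 for the other. Of 34 RNA polymerase I and III genes 13 fell and 0 rose (median −0.16), 6 with near-repeats counted once. The cytosolic ribosomal protein genes showed no such shift: of 125 tested 22 fell (17.6%) and 5 rose (4%), against 19.6% and 18.9% of all features, and the median was 0.00. Near-repeats counted once left 13 falls and 2 rises. The medians were −0.08 for Cdelta21, 0.09 for Cdelta53 and −0.01 for 2C/S-H/Y. Replicates of this list lay far apart, with list means of 0.44 and 0.16 early in Cdelta21. In 2C/S-H/Y they were 0.58 and 0.21 early and 0.56 and 0.14 late. A small shift of this list could thus be missed. rpl302, for ribosomal protein L3, fell by 1.15 (SE 0.08), with −2.31 in Cdelta53 and −0.47 and −0.67 in Cdelta21 and 2C/S-H/Y. Many of these proteins are encoded by near-identical gene pairs, whose probes may read both copies.

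**Figure D4:**
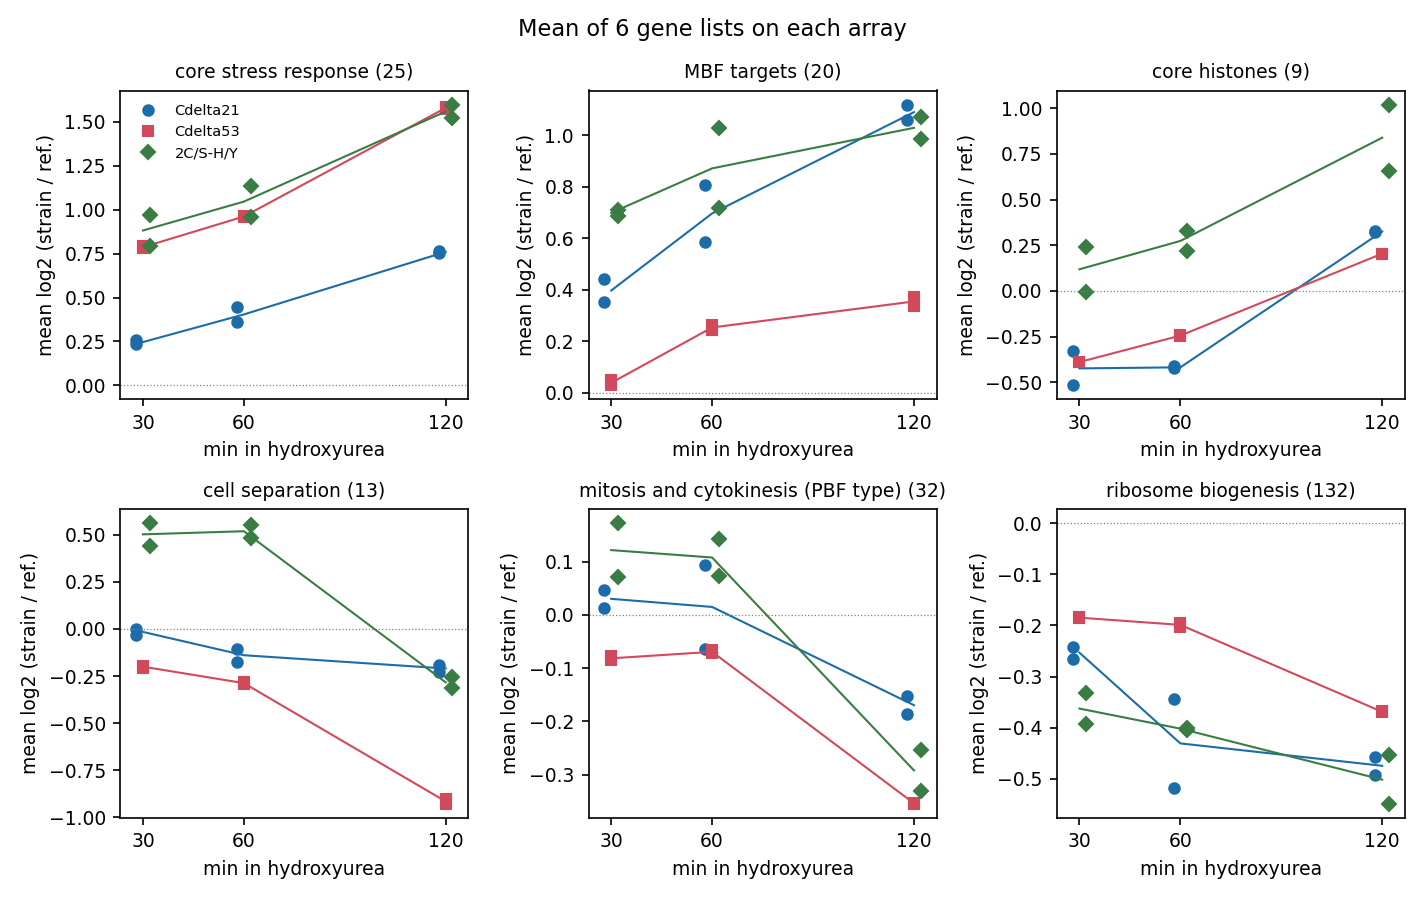
Mean log2 ratio of 6 gene lists on each array at 30, 60 and 120 min, by strain; each point is 1 array and lines join the means. Mitosis and cell separation lists change little from 30 to 60 min and more from 60 to 120 min in Cdelta53 and 2C/S-H/Y, whereas MBF targets made the larger part of their rise by 60 min in Cdelta53.

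In most lists the larger step fell in the second interval, which is the longer one. In 25 of 33 lists the median step from 60 to 120 min was larger than that from 30 to 60 min. A steady rate alone would also give a larger second step, and rates were not compared. For core stress genes the median steps were 0.19 and then 0.50, for core histones 0.10 and then 0.63, and for cell separation genes −0.05 and then −0.55. For MBF targets the list medians had the other order, with 0.25 and then 0.17, but this did not hold throughout. The largest rises of that list had the larger second step: cig2 0.48 and then 0.75, cdc18 0.46 and 0.69, cdc22 0.38 and 0.58, cdt2 0.34 and 0.53. In Cdelta21 the list means were 0.35 and 0.44 at 30 min, 0.58 and 0.81 at 60 min, and 1.06 and 1.12 at 120 min. These steps are a description and were not tested: the 60 min arrays entered only the estimate of spread, and 1 of those of 2C/S-H/Y is the near-repeat named above. From 0 to 30 min, outside the comparison, the median histone difference was −0.46, opposite in sign to the later one.

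Metabolic genes gave smaller or mixed changes. Of 22 ergosterol genes 10 rose and only erg8 fell, with erg24 up by 0.63 ± 0.06; with near-repeats counted once 6 rose and 0 fell. Of 17 glycolysis genes 6 rose (35.3%, against 18.9% of all features) and 0 fell, led by pgi1 (0.47 ± 0.06). With near-repeats counted once 2 rose, a share close to the 11.5% of all features, so no shift of this list is read from it. Of 20 autophagy genes 5 rose (atg6, atg4, psp3, isp6 and atg10; 25%, against 18.9% of all features) and 0 fell. Near-repeats counted once left 3 rises. gdh2, for the NAD-dependent glutamate dehydrogenase, had the largest rise on the nitrogen list, 1.78 ± 0.06. It went from 1.73 and 1.60 to 3.89 and 3.78 in Cdelta21, from 0.51 and 0.52 to 2.69 on both arrays in Cdelta53, and from 0.83 and 0.86 to 1.73 and 1.97 in 2C/S-H/Y. Of the 23 genes on that list 4 rose (17.4%, against 18.9% of all features) and 10 fell (43.5%, against 19.6%). Among those that fell was glt1, for glutamate synthase, by 0.69 (SE 0.07). With near-repeats counted once 2 rose and 7 fell. Genes of sexual differentiation were split: of 27, ste6, for the Ras exchange factor, rose by 1.28 ± 0.11 with 6 others, while the master regulator ste11 and the pheromone gene mfm2 fell by 0.69 (SE 0.11) and 0.85 (SE 0.08). In all 7 rose (25.9%) and 4 fell (14.8%), and with near-repeats counted once 3 rose and 4 fell. Mitochondrial ribosomal protein genes had 5 rises and 14 falls among 57, and respiratory chain genes 5 and 6 among 46. These are 8.77% and 24.6% of the former and 10.9% and 13.04% of the latter, against 18.9% and 19.6% of all features. The counts were 2 and 8 for the former and 1 and 5 for the latter with near-repeats counted once.

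Several of the largest changes fell on genes without a standard name. SPOM_SPAC27D7.09C had the largest rise of all, 2.38 ± 0.09 (5.20-fold; limma, adjusted p = 9.73e-18). It went from −0.78 and −0.89 to 1.81 and 1.73 in Cdelta21, from 1.34 and 1.39 to 3.58 and 3.62 in Cdelta53, and from 1.27 and 1.22 to 3.61 and 3.47 in 2C/S-H/Y. The 3 strains rose by nearly the same amount, and the strain difference did not pass (adjusted p = 0.46). The noncoding RNA gene nc-pho1, as the platform annotation names it, rose by 2.15 ± 0.07, and here the strains differed: 2.25, 2.90 and 1.29 in Cdelta21, Cdelta53 and 2C/S-H/Y (adjusted p = 1.4e-06). Other large rises were SPOM_SPBC1271.08C (1.72 ± 0.13), SPOM_SPAC637.03 (1.67 ± 0.08), tsp0 (1.63 ± 0.07), SPOM_SPAC15E1.02C (1.53 ± 0.07), SPOM_SPAC13C5.04 (1.40 ± 0.10), cmt1 (1.31 ± 0.09) and SPOM_SPBC215.11C (1.31 ± 0.12). Of the largest falls, SPOM_SPCC306.11 fell by 1.50 (SE 0.06), uds1 by 1.34 (SE 0.13), cts2 by 1.30 (SE 0.09) and gas1, for a glucanosyltransferase of the cell wall, by 1.18 (SE 0.06). sap1, a DNA-binding protein of fork barriers, fell by 1.11 (SE 0.10) and lig4, the ligase of end joining, by 1.09 (SE 0.06). SPAC23A1.01c, pun1 and ted1 fell by 1.07, 1.01 and 0.99.

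The size of the change differed between strains for 584 features (11.7%; limma F test, adjusted p under 0.05), but for 80 with near-repeats counted once. Across the 5004 features the within-strain differences correlated at 0.655 between Cdelta21 and 2C/S-H/Y, 0.529 between Cdelta21 and Cdelta53, and 0.521 between Cdelta53 and 2C/S-H/Y. The SD of those differences was 0.278 for Cdelta21, 0.424 for Cdelta53 and 0.332 for 2C/S-H/Y. Tested alone, Cdelta21 had 527 calls (10.5%), Cdelta53 1686 (33.7%) and 2C/S-H/Y 905 (18.1%). With near-repeats counted once these were 299, 436 and 570, and 2C/S-H/Y then had more calls than Cdelta53. Of the 345 features called in both tests, Cdelta53 lay farthest from the median of the 3 strains in 245.

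**Figure D5:**
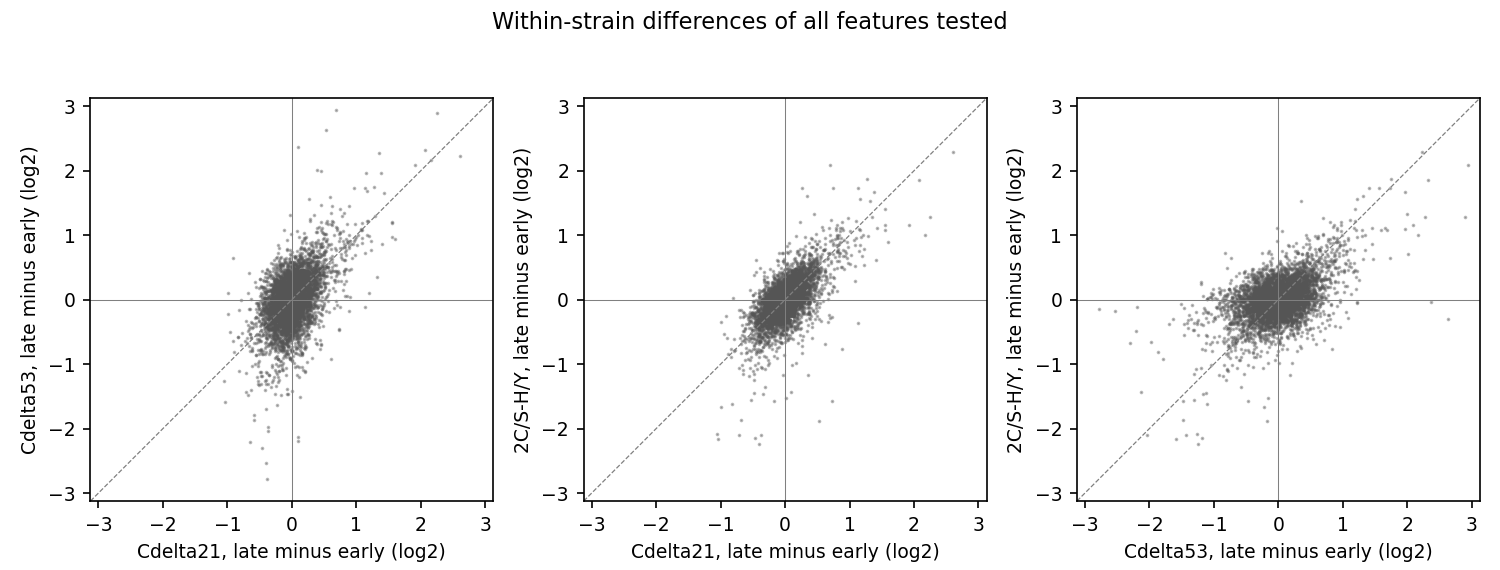
Late minus early log2 difference of all 5004 features in pairs of strains, with the line of equal change dashed. The differences correlate positively in each pair (0.529, 0.655 and 0.521) with wide scatter about the line, and they spread more along the Cdelta53 axis.

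The clearest strain differences were in single genes. The F test p-values of single genes, here and above, come from the full fit, which counts the near-repeat Cdelta53 arrays as separate replicates. They are therefore likely too small, and values with near-repeats counted once are not given for single genes. frp1, for the ferric chelate reductase of iron uptake, was at −0.17 and −0.24 early and 0.46 and 0.20 late in Cdelta21. It went from 1.65 and 1.63 to 4.26 and 4.30 in Cdelta53, and from 2.78 and 2.75 to 2.32 and 2.60 in 2C/S-H/Y. The within-strain differences were thus 0.53, 2.64 and −0.31 (limma F test, adjusted p = 2.7e-12). mdm12, for a subunit of the tether between endoplasmic reticulum and mitochondria, gave within-strain differences of 0.09, −2.20 and −0.12 (adjusted p = 1.6e-08). It went from −0.76 and −0.75 to −3.001 and −2.90 there, against 2.04 and 1.70 and then 1.90 and 2.02 in Cdelta21, and 2.43 and 1.97 and then 2.03 and 2.14 in 2C/S-H/Y. the4 and lam2 also differed, with differences of −0.91, 0.65 and −0.25 and of 0.12, −1.51 and −0.07 in Cdelta21, Cdelta53 and 2C/S-H/Y. SPOM_SPCC63.06 gave 0.09, 2.37 and −0.03, but 5 of its 24 probe values were missing, and its average rests on which probe was present.

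In the iron and uracil lists the mean of the 3 strains combined opposite directions. Of 20 iron genes 5 rose and 5 fell (25% each, against 18.9% and 19.6% of all features), and with near-repeats counted once 4 rose and 4 fell. The strain difference passed for 12 of them, against 11.7% of all features. That count was not repeated for the list with near-repeats counted once, where 80 rather than 584 of all features passed. The siderophore transporter gene str1 gave −0.79, −0.01 and −0.80 in the strains in the same order, and shu1, for a heme receptor, 0.28, 1.25 and 0.31, although the 2 probes of shu1 gave −0.25 and 1.47. Of 7 uracil-regulated genes 4 fell (urg1, urg2, uck2 and urk1), also with near-repeats counted once. For urg2 4 probe values were missing, so its average depends in part on which probe was present. urg1 went from 0.21 and 0.51 to 0.86 and 0.92 in Cdelta21, was 2.96 and 2.92 early and 2.75 and 2.78 late in Cdelta53, and went from 4.88 and 4.24 to 2.66 and 2.69 in 2C/S-H/Y. Its mean difference was −0.51 ± 0.13, and without 2C/S-H/Y it was 0.18.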

How the data were processed

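RNA of the strains was compared with a pooled wild-type reference on 40 arrays. The deposited values are log2 ratios for each probe on each array and were used as given. Per the labels' protocols the strain's RNA carried Cy5 and the reference Cy3 on every array, with no dye swap. The ratio was taken as strain over reference, which no source states; base 2 was read from the values (100% were whole multiples of 0.001 within 0.02 of that unit as powers of 2, against 3.48% as powers of 10). The medians of the arrays lay between −0.12 and 0.06, and no correlation between arrays was below −0.05. The sources used here give no scanner, background correction or normalization, signal over background was not used, and the number of arrays limits the precision. A field of the labels names another mutant, and strains were taken from the titles.

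Of 9858 probes 9632 had 1 gene symbol, 44 several and 182 none. Probes of a gene were averaged. Features with values on at least 80% of arrays and in every group were kept (5004 of 5042, of which 4794 were named). Of 4816 named genes 4791 were found in the RefSeq table of assembly ASM294v3, which served for names and gene order. Of all values 1.17% were missing.

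The functions lmFit and eBayes of limma 3.58.1 (R 4.3.3) fitted the means of 20 groups on all 40 arrays, with 20 residual degrees of freedom. Cdelta94 and the other times entered the estimate of spread only. The contrast was the mean of the 3 within-strain differences between 120 and 30 min, the F test asked whether these differ, and p-values were adjusted by Benjamini-Hochberg over all 5004 features (threshold 0.05). The SE is limma's. On simulated data with the same groups and features, 95 of 100 genes changed by 0.5 and 100 of 100 changed by 1 on the log2 scale were called, and 7 unchanged features. The simulated noise was independent between arrays, unlike that of the near-repeat arrays, so these rates need not hold for the real arrays. Replicates of the same number deviated together (correlations between 30 and 120 min of 0.144 for Cdelta21, 0.105 for Cdelta53 and 0.324 for 2C/S-H/Y), so a fit with the replicate number as a block was also run. The other alternatives were near-repeat arrays counted once, strains as the unit, fewer arrays in the fit, each array or strain left out, array centring, quantile normalization, no filter, and both probes required.

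The genes named were the 14 largest rises and falls among called genes with 1 sign in 3 strains, up to 4 called members of each list by size, all MBF subunits and regulators, and the 8 smallest p for the strain difference; members of counts up to 5, all cell separation genes, suc22 and neighbouring genes are named after their values were seen. The comparison and the lists were chosen with earlier results of these data known. Lists were matched by current and older names, and the pattern for ribosomal proteins also takes rpp1 and rpp40 of RNase P.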

Additional observations from a re-analysis of the deposited data

Results flagged for a closer look

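The change between 30 and 120 min differed between the 3 strains for 584 features by limma's F test. The genes named in the text that passed it follow with their adjusted p from the full fit, and the number of arrays is the same for all. With near-repeats counted once 80 features passed, and which of these genes were among them is not given. Of the genes that rose with 1 sign in the 3 strains, the largest change was in Cdelta21 for ams2 (0.000205). Of the genes that rose with 1 sign in the 3 strains, the largest change was in Cdelta53 for nc-pho1 (1.37e-06), gdh2 (2.21e-06), lsd90 (2.21e-06), shu1 (0.00106), tps1 (0.00236), hsp104 (0.00348), hsp78 (0.0235) and imp2 (0.0405). Of the genes that fell with 1 sign in the 3 strains, the largest change was in Cdelta53 for rpl302 (6.62e-07), lig4 (1.56e-06), sap1 (1.21e-05), spd1 (0.00354), glt1 (0.00571) and rum1 (0.0247). Of the genes that rose with 1 sign in the 3 strains, the largest change was in 2C/S-H/Y for zym1 (0.0188), SPOM_SPAC15E1.02C (0.0197) and tms1 (0.0485). Of the genes that fell with 1 sign in the 3 strains, the largest change was in 2C/S-H/Y for SPOM_SPCC306.11 (6.75e-09), exg1 (1.56e-06), eng1 (1.56e-06), SPAC23A1.01c (3.76e-06), cts2 (6.09e-06), slp1 (1.25e-05), spo12 (0.000377), dbp2 (0.000479), gas1 (0.00199), pun1 (0.00323), str1 (0.00688), etd1 (0.013), uck2 (0.0156) and uds1 (0.0304). The within-strain differences did not share a sign for frp1 (2.74e-12), SPOM_SPCC63.06 (6.02e-10), adg1 (1.25e-08), mdm12 (1.65e-08), the4 (1.14e-07), lam2 (7.25e-07), urg1 (1.16e-05), cdm1 (3.43e-05), urg2 (4.04e-05), mrc1 (0.00496) and erg8 (0.0259). In Cdelta21, Cdelta53 and 2C/S-H/Y the differences of cdm1 were 0.20, −1.12, −0.67 in that order, and those of urg2 0.73, −0.48, −1.58.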

How the results depend on the processing

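Counts depended on how many arrays were taken as independent and on the scaling. Of the 146 genes named by the rule, 136 kept their call and direction with near-repeats counted once, 129 with the 2C/S-H/Y 30 min replicate 1 array left out as well (an alternative chosen after seeing the data), 122 under quantile normalization and 79 with strains as the unit. With near-repeats counted once 1132 features were called in all (573 rose, 559 fell), 240 list members, 299 in Cdelta21, 436 in Cdelta53, 570 in 2C/S-H/Y and 80 for the strain difference. With that array also left out these were 1073 (557 and 516), 235, 295, 434, 406 and 66, and rep2, pas1, fta4, urg2 and urk1 no longer passed. With strains as the unit 402 were called (264 and 138), and 94 list members. When both probes of a gene had to pass, the counts were 897 (464 and 433), 197 list members, 153, 686 and 313 in the strains, and 132 for the strain difference. Quantile normalization left 627 falls, 19 changes of at least 2-fold, 259 list members, and 918 and 445 calls in Cdelta53 and 2C/S-H/Y. Averaging 4 strains with Cdelta94 by its labels gave 1190 calls, 547 falls, 7 of at least 2-fold and 237 list members, and leaving out Cdelta53 gave 611 falls. Fewer arrays or strains, or a stricter rule, account by construction for part of these losses, and no other cause was tested.

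Leaving out 1 array at a time gave 1618 to 1875 calls (804 to 924 rose, 814 to 951 fell), 53 to 61 of at least 2-fold and 329 to 387 list members. The strain difference ran from 290 to 837, Cdelta21 from 278 to 570, Cdelta53 from 1016 to 1782 and 2C/S-H/Y from 505 to 990. The lowest of these came without a 120 min replicate 1 array of Cdelta53 (strain difference and Cdelta53), Cdelta21 and 2C/S-H/Y, and leaving out any 1 of the 4 Cdelta53 arrays moved the strain difference by over 1.5 times. With the replicate number as a block 2155 features were called and 824 for the strain difference, within 1.5 times of the main counts, and the replicate block changed no call of the 146 genes. Array centring, no filter, the 12 arrays alone and the fit without Cdelta94 kept all counts within 1.5 times.

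Some genes with small mean differences turned sign. Leaving out 1 array at a time, rep1 ranged from −0.092 to 0.058, and it was at 0.020 without Cdelta53. In the same way whi5 ranged from −0.096 to 0.17, and it was at −0.13 after quantile normalization and −0.026 without Cdelta21. Without 2C/S-H/Y urg1 was at 0.18 and urg2 at 0.13, and without Cdelta53 lam2 was at 0.027. the4 was at 0.023 over 4 strains and 0.20 without Cdelta21. After quantile normalization dak2 was at −0.10 and mrps16 at −0.0020, and SPOM_SPCC63.06 was at −0.15 when both probes had to pass. Signal over background was not used, so dim probes were not told apart.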

Other observations

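The rise of SPOM_SPBC1271.08C had company on both sides. In the RefSeq gene order of ASM294v3 it lies between tgp1, for a glycerophosphodiester transporter, and SPOM_SPBC1271.07C. These neighbours, chosen after their values were seen, rose by 0.69 ± 0.08 (limma, adjusted p = 1.6e-07) and 1.19 ± 0.07 (limma, adjusted p = 1e-13), and each of the 3 genes was higher late in all 3 strains. osr2, which lies next to gst2, rose by 0.81 ± 0.07 with differences of 0.82, 0.74 and 0.85 in Cdelta21, Cdelta53 and 2C/S-H/Y. Whether probes of neighbouring genes read the same transcript was not tested.

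By its labels the left-out strain Cdelta94 went the opposite way on 3 of the lists that moved most, and MBF targets were split. Its median difference between 120 and 30 min was −0.54 for core stress genes, −0.47 for core histones and 0.48 for cell separation genes. For MBF targets the median was 0.15, but cig2, cdc18, cdc22 and cdt2 were at −0.29, −0.83, −0.65 and −0.45 in Cdelta94. These genes had the largest rises of that list in the 3 strains compared.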
